A study of Mus musculus with 2 samples.

Results

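Histones are the proteins that package DNA, and this report describes the genes that encode them in 661W, a mouse cell line with cone photoreceptor features, grown with and without choline. Members were all genes on the array whose symbol begins as a linker histone (H1f), a core histone of the replication-dependent clusters (H2ac, H2bc, H3c, H4c) or another H2A, H2B, H3.3 or H4 gene. The rule took 76 of the 29608 gene names on the array, read by 93 probes. They comprised 10 linker genes, 40 replication-dependent core genes and 26 other core genes, called variants here. Of these, 66 were well above background on both arrays, namely 9 linker, all 40 replication-dependent core and 17 variant genes. No measured value entered the rule.

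The study held 1 array of cells kept in choline-deficient DMEM/F12 and 1 array of cells kept in choline-sufficient DMEM/F12, each for 3 days, with serum in the medium of the line's routine culture. The sufficient medium held 8.98 g/L choline according to the labels, a figure far above usual culture media that may have been meant in mg/L. The design text speaks of total RNA pooled over 4 dishes without saying whether that was per condition, and 661W is a single immortalised line. With 1 array per condition there was no replicate check and no test, so sizes alone are given, and a difference of these arrays is not shown to be one of the conditions.

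In each nucleosome DNA is wrapped around the core histones H2A, H2B, H3 and H4, and the linker histone H1 binds where the DNA enters and leaves. Most histone protein is made in S phase from clustered, intronless genes whose mRNAs end in a conserved stem-loop rather than a poly(A) tail. Variants such as H2A.Z and H3.3 come from single genes with polyadenylated mRNAs and are made throughout the cell cycle. Some clustered genes also give longer, polyadenylated transcripts. The labelling kit primes from poly(A) tails, so how much of a stem-loop mRNA an array records is uncertain, and its part in the results was not tested.

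The sequences that matter most here are those of the probes, because clustered histone genes are near copies of one another. The first 30 bases of 4 H2A probes of 60 bases show this. Capitals mark bases that differ from the H2ac10 probe, and positions are those the files give on mm9.
H2ac10, chr13:23626113-23626172, plus strand: atccaggccgtgctgctgcccaagaagacc
H2ac15, chr13:21845304-21845363, minus strand: atccaggccgtgctgctgcccaagaagacc
H2ac22, chr13:21902669-21902728, plus strand: atccaggccgtActgctgccGaagaagacc
H2ac19, chr3:96043781-96043840, minus strand: atccaggccgtgctgctgcccaagaagacG
Each of the other three shares 55 of its 60 bases with the H2ac10 probe, so none of the 4 can be assigned to its gene alone. In all, 19 of the 93 member probes shared at least 45 bases with the probe of another member. Probes were compared with probes and not with transcripts, so a probe without such a partner may still read other members. The probes behind the largest differences have no such partner among the members, and their first 30 bases are given next.
H2bc23, chr13:21929214-21929273, plus strand: aaggctctgtactaaagaacatttttatga
H1f2, chr13:23832018-23832077, plus strand: tacacttgctttgccttattttgatcagca
H2bc22, chr13:21880994-21881053, plus strand: gagaccgaagtgtgaactaccctccacaat
H2bc4, chr13:23784254-23784313, plus strand: gctgcaaaattaagatgctcctagcaaaag
H2aw, chr11:58768954-58769013, plus strand: aaggttctggtttagatgctagtgtttcta
The H1f2 probe starts at base 1341 of its transcript, while the H1f2 gene spans 725 bases in RefSeq (GRCm38.p6). The H2aw probe starts at base 767 and the H2aw gene spans 508 bases there. Both are therefore placed on transcripts longer than the RefSeq gene. The H2bc23 probe is recorded on the plus strand, whereas RefSeq has H2bc23 on the minus strand, so its gene is uncertain. Among 85 probes that could be compared, 80 lay on the strand of their gene. The 5 on the opposite strand were those of H2bc23, H2ac11, H2ac22, H2ab3 and H2al2b, so the genes of all 5 are uncertain.

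Linker genes and H2B genes were the histone genes that stood highest on the choline-deficient array relative to the choline-sufficient one, and variant core genes were not higher as a group. Values are log2 levels, the processed signal over the array's own 75th percentile, and differences are choline-deficient minus choline-sufficient. Over 66 measured members the median difference was 0.12, and 44 were above 0. Over all 19805 measured genes the median was -0.10, and 8435 were above 0. At least 1.5-fold higher were 13 members (19.7%), against 14.8% of all genes, and at least 1.5-fold lower were 3 (4.55%), against 14.1%. At 2-fold 4 of the 66 members were higher and 1 lower, against 7.67% and 3.88% of all genes. Both shares of members were thus below those of all genes. The scanner software's error of a member's difference had a median of 0.20 and a range of 0.20 to 0.40. It covers the array measurement and not variation between cultures.

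The 3 classes differed in their medians. The median difference was 0.38 for the 9 linker genes, 0.21 for the 40 replication-dependent core genes and -0.19 for the 17 variants. The core median was above the variant median by 0.39, and by 0.26 to 0.40 under 9 other ways of processing. The linker median was above the core median by 0.17, and by 0.02 to 0.56 under those 9. Median scaling, spike-in scaling and the value table shift all genes alike, so they could not change these gaps. The sign of the variant median was not stable, since it was 0.02 after cyclic loess and 0.09 after scaling to spike-in probes.

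**Figure D1:**
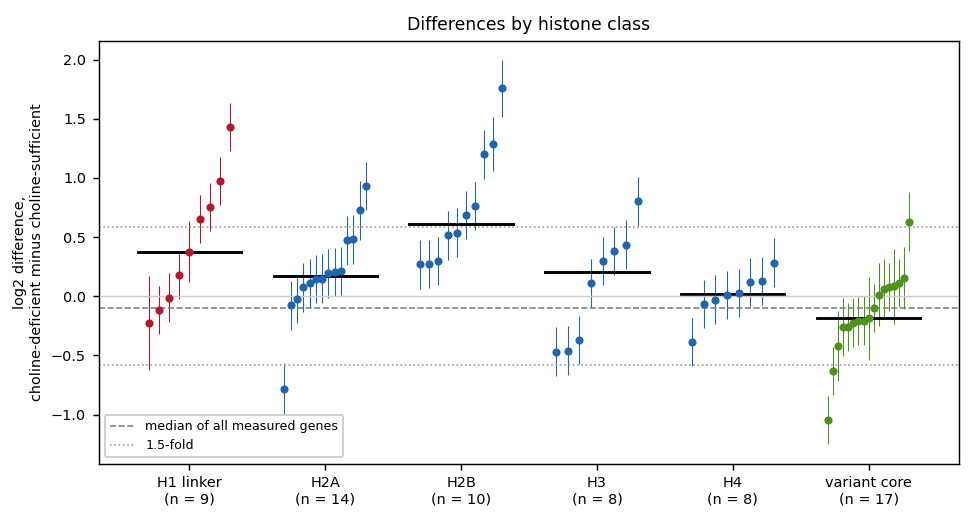
Log2 difference (y axis, choline-deficient minus choline-sufficient) of every member measured on both arrays, by class, with the replication-dependent core genes split into H2A, H2B, H3 and H4. Each point is 1 gene with the scanner software's error, the black bars are medians, the dashed line is the median of all measured genes (-0.10) and the dotted lines mark 1.5-fold. All 10 H2B points lie above 0, while the 8 H4 points lie between the 1.5-fold lines.

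Among linker histones, the genes of somatic cells differed most. H1f2, a main replication-dependent H1, had a log2 level of 1.32 on the choline-deficient and -0.11 on the choline-sufficient array. The difference was 1.43 ± 0.20, or 2.69-fold. H1f5, another clustered H1 gene, had levels of 3.95 and 2.97, a difference of 0.98 ± 0.20 or 1.97-fold (NM_020034, chromosome 13, 21871923 to 21871982). These 2 genes and 2 further ones, H1f0 and H1f1, made up the 4 linker genes at least 1.5-fold apart (44.4%). All 4 were higher on the choline-deficient array, against 14.8% of all genes. H1f1 fell short of 1.5-fold with median scaling (0.53) and after normexp, another background correction (0.57). H1f0 encodes the replacement linker histone H1.0, which is polyadenylated and known from cells that have left the cycle. Its levels were -0.78 and -1.54, a difference of 0.75 ± 0.20 or 1.69-fold (NM_008197, chromosome 15, 78859930 to 78859989). H1f1 had levels of 0.86 and 0.21, a difference of 0.65 ± 0.20 or 1.57-fold (NM_030609, chromosome 13, 23855888 to 23855947).

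The remaining linker genes did not reach 1.5-fold. H1f4, also a clustered somatic gene, had levels of 4.00 and 3.81, a difference of 0.18 ± 0.20. H1f10, a dispersed linker gene, differed by -0.12 ± 0.20. Over the 6 measured somatic genes, H1f0, H1f1, H1f2, H1f4, H1f5 and H1f10, the median was 0.70, and it was between 0.58 and 0.97 under the 9 other ways of processing. The germ-cell genes H1f6, H1f7 and H1f8 differed by 0.38 ± 0.26, -0.22 ± 0.40 and -0.01 ± 0.21. H1f7 was the lowest of the class (NM_027304, chromosome 15, 98086469 to 98086528), with processed signals of only 7.03 and 6.52. H1f3 was above background on neither array.

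**Figure D2:**
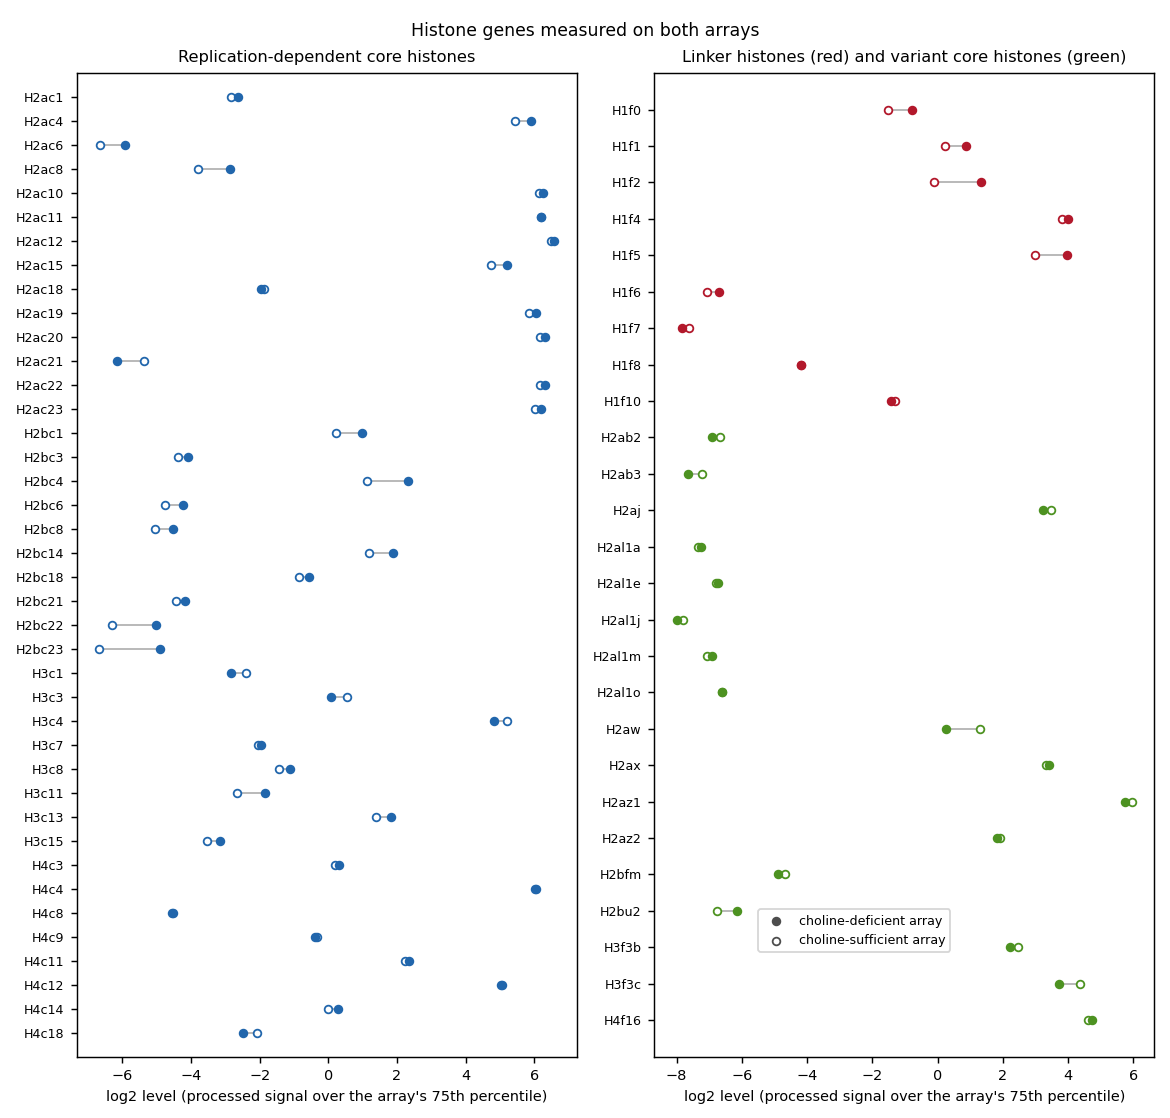
Log2 level (x axis, processed signal over the array's 75th percentile) of each member measured on both arrays, with the choline-deficient array filled and the choline-sufficient array open. The 2 points of a row can be compared, while rows cannot, since different probes differ in brightness. H1f2, H1f5, H2bc4, H2bc22 and H2bc23 have the filled point well to the right, and H2aw and H2ac21 have it to the left.

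The 10 H2B genes of the clusters were all above 0, with differences from 0.27 to 1.76 and a median of 0.61. Of these, 5 were at least 1.5-fold higher (50%, against 14.8% of all genes). H2bc23 had the largest difference of any member, with levels of -4.92 and -6.67, a difference of 1.76 ± 0.24 or 3.38-fold (NM_001097979). Its probe is the one recorded on the opposite strand to the RefSeq gene, so this value may belong to another gene. H2bc22 had levels of -5.01 and -6.30, a difference of 1.29 ± 0.23 or 2.44-fold (NM_178202). Both rest on dim spots, with processed signals of 53.2 and 12.5 for H2bc23 and of 49.95 and 16.3 for H2bc22. After normexp with an offset of 50 these differences were 0.37 and 0.23.

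H2bc4 was well clear of background, with levels of 2.33 and 1.13, a difference of 1.20 ± 0.20 or 2.30-fold (NM_023422). It stayed at least 1.5-fold higher under the 9 other ways of processing, at 1.08 to 1.47. Some of these could not change it. It rests on 1 bright probe, which no filter or choice of probes alters, and the value table holds the same signals. H2bc1, whose product TH2B is best known from testis, had levels of 0.98 and 0.22, a difference of 0.76 ± 0.20 or 1.69-fold (NM_175663, chromosome 13, 24025811 to 24025870). H2bc14 had levels of 1.87 and 1.19, a difference of 0.68 ± 0.20 or 1.61-fold (NM_178200, chromosome 13, 21814057 to 21814116), and fell short of 1.5-fold with median scaling (0.57). The remaining H2B genes had smaller differences, from 0.27 in H2bc21 and H2bc18 through 0.30 in H2bc3 to 0.51 in H2bc6 and 0.54 in H2bc8. After normexp 9 of the 10 H2B genes were above 0 and 3 were at least 1.5-fold higher, with a median of 0.22.

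The 14 H2A genes had a median difference of 0.17. H2ac8 had levels of -2.86 and -3.79, a difference of 0.93 ± 0.20 or 1.91-fold (ENSMUST00000102969.5, chromosome 13, 23662489 to 23662548). H2ac6 was dim, with processed signals of 26.6 and 12.8, a difference of 0.73 ± 0.25 or 1.65-fold (ENSMUST00000171127.3, chromosome 13, 23773343 to 23773402). Its direction turned to -0.08 after normexp. H2ac21 was the lowest core gene of the clusters, with levels of -6.17 and -5.38, a difference of -0.79 ± 0.22 or 1.73-fold lower (NM_178213, chromosome 3, 96024171 to 96024230). It too was dim, at signals of 22.3 and 30.7, and was short of 1.5-fold after normexp (-0.46) and spike-in scaling (-0.52).

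Many H2A probes share sequence. The 7 H2A probes with at least 45 bases in common with another member's probe had differences between -0.02 and 0.21, with a median of 0.11 and none at 1.5-fold. The 8 H2A probes without such a partner had a median of 0.34, with 3 at least 1.5-fold higher and 1 lower. Over all genes 14.8% were at least 1.5-fold higher and 14.1% lower, so counts among so few probes say little. Within H2ac15 both kinds occur. Its probe at base 418, printed above, gave 0.04 ± 0.20, while its probe at base 85, chromosome 13, 21845637 to 21845696, gave 0.92 ± 0.20. Over all replication-dependent core genes, the 13 shared probes had a median of 0.11 with none at 1.5-fold. The 34 others had a median of 0.30 with 9 higher and 1 lower, beside 14.8% and 14.1% of all genes. The H2ac11 probe is recorded over a stretch of chromosome 13 from 23666685 to 23726365 that also holds probes of H3c4 and H4c4, and the H2ac22 and H2ac23 probes overlap by 34 identical bases. At fewer than 45 shared bases, the H2ac23 probe counts as without a partner. Whether the probes without a partner, that at base 85 of H2ac15 among them, read their gene alone was not tested.

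H3 and H4 genes of the clusters differed less. The 8 H3 genes had a median of 0.20 and ranged from -0.47 in H3c3 to 0.80 in H3c11, and the median was -0.03 among the brighter probes alone. H3c11 had levels of -1.85 and -2.65, a difference of 0.80 ± 0.20 or 1.74-fold (NM_178207, chromosome 13, 21874784 to 21874843). H3c1, H3c3 and H3c4 were on the other side of 0, at -0.46, -0.47 and -0.37, each ± 0.20. The other four, H3c7, H3c8, H3c13 and H3c15, lay between 0.11 and 0.44.

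The 8 H4 genes had a median of 0.02, from -0.39 in H4c18 to 0.28 in H4c14, and the median was -0.10 when the arrays were scaled to their medians. None reached 1.5-fold in either direction, against 14.8% of all genes higher and 14.1% lower. In 3 H4 genes the probes had opposite signs. The H4c12 probes gave -0.02 and 0.07, the H4c4 probes 0.13 and -0.12, and the 3 H4c9 probes 0.06, -0.32 and 0.07, each ± 0.20. These lie on chromosome 13, with H4c12 (NM_178211) at 21842063 to 21842338, H4c4 (NM_175654) at 23673515 to 23673808 and H4c9 (NM_175656) at 22132591 to 22133198.

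Neighbouring H2A and H2B genes, which often share an upstream region and are read in opposite directions, did not always differ alike. Of 7 neighbouring pairs in RefSeq order with both genes measured, the H2B gene had the larger difference in 5. In 3 of these 5, H2ac20 with H2bc21, H2ac22 with H2bc22 and H2ac23 with H2bc23, at least 1 probe shares bases with another member's or cannot be placed with certainty, and the other 4 pairs were split evenly. H2ac6 and H2bc4 differed by 0.73 and 1.20, and H2ac1 and H2bc1 by 0.21 and 0.76. In the pair H2ac8 and H2bc8 the H2A gene had the larger value, 0.93 against 0.54. By cluster, the 31 genes on chromosome 13 had a median of 0.19, with 8 at least 1.5-fold higher (25.8%) and 0 lower. The 9 on chromosome 3 had a median of 0.27, with 0 higher and 1 lower (11.1%). Over all genes 14.8% were higher and 14.1% lower, so counts among 9 genes say little.

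The upstream regions of H2B genes are known for an octamer motif, ATTTGCAT, bound by POU-family factors. In the RefSeq promoter table (GRCm38.p6), 69 of 76 members had the 250 bases before the start. The octamer was searched on both strands and was found in 14 of 69 members (20.3%), against 1.81% of 27025 genes. It was in 6 of 8 H2B, 6 of 14 H2A, 0 of 6 H3, 0 of 7 H4 and 0 of 10 linker genes. CCAAT on both strands was found in 71.0% of members and 37.5% of genes, and TATAAA on the given strand in 33.3% and 8.94%. The motifs were counted separately, whether or not matches overlapped.

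The 150 bases before the start are shown for 3 H2B genes, for the linker gene with the largest difference and for the lowest variant gene, with capitals for matches to the octamer, to CCAAT or to ATTTGAAT, each on either strand.
H2bc23, chr13:21810200-21810349, minus strand: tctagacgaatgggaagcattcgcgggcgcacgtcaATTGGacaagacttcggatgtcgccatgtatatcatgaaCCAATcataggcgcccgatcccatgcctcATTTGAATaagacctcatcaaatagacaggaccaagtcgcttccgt
H2bc22, chr13:21787338-21787487, plus strand: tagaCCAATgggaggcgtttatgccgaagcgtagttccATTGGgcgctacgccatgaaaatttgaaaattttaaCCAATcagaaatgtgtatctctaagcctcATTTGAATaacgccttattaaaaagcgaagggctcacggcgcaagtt
H2bc14, chr13:21721894-21722043, plus strand: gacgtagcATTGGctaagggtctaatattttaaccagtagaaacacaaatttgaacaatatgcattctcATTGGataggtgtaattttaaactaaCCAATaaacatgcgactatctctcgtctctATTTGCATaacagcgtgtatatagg
H1f2, chr13:23738657-23738806, plus strand: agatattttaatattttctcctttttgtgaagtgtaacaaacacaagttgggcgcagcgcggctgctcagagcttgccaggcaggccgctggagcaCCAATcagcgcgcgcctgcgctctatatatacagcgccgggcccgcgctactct
H2aw, chr11:58954535-58954684, plus strand: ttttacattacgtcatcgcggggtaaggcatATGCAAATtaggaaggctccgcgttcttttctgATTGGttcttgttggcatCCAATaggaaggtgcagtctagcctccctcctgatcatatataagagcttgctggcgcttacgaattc
H2bc14 holds the octamer 25 bases before its start. H2bc23 and H2bc22, the H2B genes with the largest differences, are the 2 H2B genes in the table without it, though the gene read by the H2bc23 probe is uncertain and H2bc4 is not in the table. Both hold ATTTGAAT, a change of 1 letter from the octamer, at 46 and 47 bases before the start. This motif was added after these stretches had been read, and it is in 4 of 8 H2B genes and in 1.32% of all genes. The 6 H2B genes with the octamer had differences with a median of 0.53 (0.27 to 0.76), against 1.52 for the 2 H2B genes without it. Over core genes of the clusters, 12 with it had a median of 0.49, against 0.12 for the 23 without. That contrast mixes classes, since no H3 or H4 gene in the table holds the octamer. The other 2 members with the octamer, H2aw and H3f3b, differed by -1.05 and -0.22. A match in these letters says nothing about binding in these cells.

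Differences were also set against how far along its transcript a probe lies. Over the clustered core genes and H1f1, H1f2, H1f4, H1f5 and H1f6, 10 probes start beyond base 600. All 10 were above 0, with a median of 0.45 and 4 at least 1.5-fold higher (40%, against 14.8% of all genes). They include 5 H2B probes (H2bc4, H2bc6, H2bc18, H2bc21 and H2bc23) and 3 linker probes (H1f2, H1f4 and H1f6), so position and class overlap. Within H2bc18 the probe at base 433 gave 0.37 and the probe at base 1348 gave 0.18. The 42 probes that start within the first 600 bases had a median of 0.14, with 8 at least 1.5-fold higher and 1 lower. The limit of 600 bases was chosen after the data were seen, and longer transcripts were not measured apart from shorter ones of the same gene. In RefSeq terms, 7 probes of linker or clustered core genes start beyond the whole gene span, those of H1f2, H2ac6, H2bc8, H2bc18, H3c15 and 2 of H4c9. Their median was 0.38, against 0.15 for the 49 probes within it. With H2aw and H2bu2, whose probes also start beyond the span, the 9 probes ran from -1.05 to 1.43 with a median of 0.38.

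**Figure D3:**
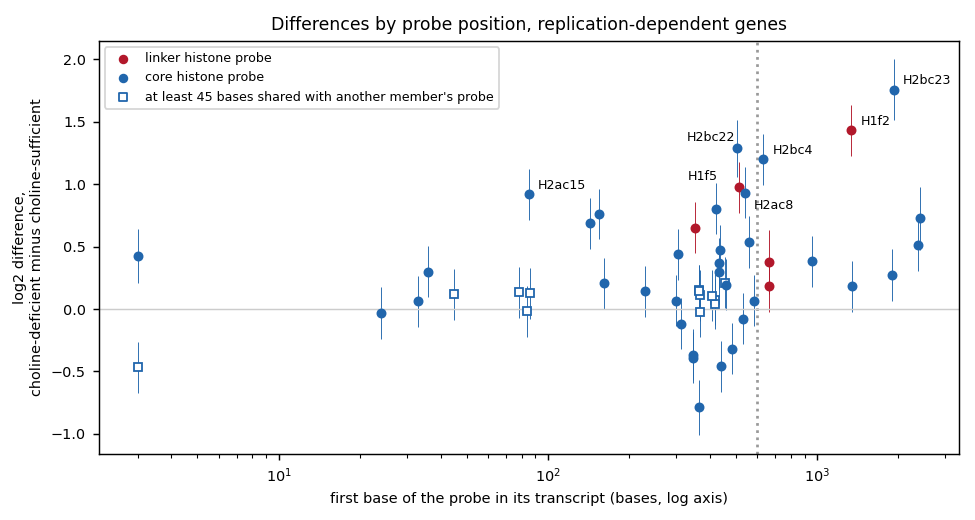
Log2 difference (y axis, choline-deficient minus choline-sufficient) against the first base of the probe in its transcript (x axis, bases, log scale) for 52 probes of clustered core genes and of H1f1, H1f2, H1f4, H1f5 and H1f6, with the scanner software's error. Open squares share at least 45 bases with another member's probe, and the dotted line is at 600 bases. The squares lie at or below 0.21, and all 10 points beyond 600 bases are above 0.

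The variant genes had a different centre. H2aw, an H2A gene of a small cluster on chromosome 11, was the lowest member, with levels of 0.24 and 1.29, a difference of -1.05 ± 0.20 or 2.07-fold lower (ENSMUST00000108817.4). It stayed at least 1.5-fold lower under the 9 other ways of processing, at -1.17 to -0.78. As for H2bc4, some of these could not change it, since it rests on 1 bright probe. H2bu2, an H2B gene of the same cluster, had levels of -6.15 and -6.78, a difference of 0.63 ± 0.25 or 1.55-fold higher (ENSMUST00000078267.4, chromosome 11, 58762964 to 58763023). It was dim, with signals of 22.7 and 11.7, and turned to -0.19 after normexp. RefSeq lists H2aw and H2bu2 under Hist3 synonyms and H4f16 under a Hist4 synonym, so these 3 may belong with the clustered genes. With them moved there, the variant median was -0.20 over 14 genes and the core median 0.21 over 43.

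Genes of histone H3.3, the H3 placed outside replication, were on the lower side. H3f3b had levels of 2.23 and 2.45, a difference of -0.22 ± 0.20. The gene named H3f3c had levels of 3.73 and 4.36, a difference of -0.63 ± 0.20 or 1.55-fold lower (NM_001370931). Its 2 probes gave -0.68 and -0.58. The gene was short of 1.5-fold after quantile normalization (-0.41), cyclic loess (-0.39) and spike-in scaling (-0.36). They are recorded on chromosome 1, at 182733208 to 182733267 and 182732757 to 182732816, next to the H3f3a probe, whereas RefSeq has H3f3c on chromosome 2, so they may read H3f3a. The single probe named H3f3a, at 182732041 to 182732100 on chromosome 1, was above background on the choline-deficient array only, with signals of 8.53 and 2.84. Its bound was 1.59-fold higher there, or 0.67 on the log2 scale, beside an error of 0.59. Such a bound sets the brighter signal against the lowest signal that counts as above background, or the dim spot's own if that is higher. It does not allow for the error.

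Of the H2A variants of dividing and resting cells, H2az1, H2az2 and H2ax lay close to 0. H2az1 and H2az2, which encode the H2A.Z found at promoters, differed by -0.21 ± 0.20 and -0.10 ± 0.20. H2ax, whose product is phosphorylated beside DNA breaks, differed by 0.08 ± 0.20. The H4 gene H4f16 differed by 0.11 ± 0.20. H2aj had levels of 3.23 and 3.48, a difference of -0.26 ± 0.20, from probes of opposite sign (NM_177688, chromosome 6). The probe at 136757181 to 136757240 gave 0.15 and the probe at 136758433 to 136758492, further along the transcript, -0.66. The probe at 0.15 shares 45 bases with the H2ac20 probe, which also gave 0.15, so it may not read H2aj alone. The probe at -0.66 has no such partner among the members and was at least 1.5-fold lower.

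The germ-cell variants were dim or absent. Over the 8 measured ones, H2ab2, H2ab3, H2al1a, H2al1e, H2al1j, H2al1m, H2al1o and H2bfm, differences ran from -0.42 in H2ab3 to 0.16 in H2al1m. None was at 1.5-fold, against 14.8% of all genes higher and 14.1% lower. H2al1n was above background on the choline-deficient array only, with signals of 9.81 and 5.41 (NM_001034100, chromosome X, 13788409 to 13788468). Its bound, here the observed difference, was 1.44-fold higher there, or 0.53 ± 0.40 on the log2 scale. H2ab1, H2al2a, H2al2b, H2al3, H2ap, H2bl1 and H2bu1-ps were above background on neither array.

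Genes that serve histones were read beside them. None of 16 measured genes of histone mRNA processing reached 1.5-fold, against 14.8% of all genes higher and 14.1% lower. Their median was -0.17, and 0.10 after spike-in scaling. Slbp, which encodes the protein that binds the stem-loop, differed by 0.06 ± 0.20. The furthest from 0 in that list were Sympk and Cpsf2, of the cleavage machinery, at -0.50 and -0.47, Zfp473 at -0.45 and Srrt at -0.40. Among 27 histone chaperone and deposition genes the median was -0.16, also turning positive (0.11) after spike-in scaling. At least 1.5-fold higher were 2 (7.41%, against 14.8% of all genes), and lower were 3 (11.1%, against 14.1%). Ubn1, of the complex that deposits H3.3, differed by -0.86 ± 0.20, Asf1b, a chaperone of newly made H3 and H4, by -0.71 ± 0.20, the importin gene Ipo4 by 0.65 ± 0.20 and Npm1 by -0.63 ± 0.20.

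Cell-cycle genes were compared because most histone mRNA belongs to S phase. The 32 S phase and G1/S genes had a median of -0.10, close to that of all genes. At least 1.5-fold higher were 2 (6.25%, against 14.8% of all genes), and lower were 3 (9.4%, against 14.1%). E2f2 differed by -0.84, Gins2 by 0.70, Gins1 by -0.69 and Fen1 by -0.63, each ± 0.20. After cyclic loess and spike-in scaling that median was 0.03 and 0.17. The 22 G2/M genes had a median of 0.18, with 4 (18.2%, near the 14.8% of all genes) at least 1.5-fold higher and 0 lower, namely Cenpf at 1.03 ± 0.21, Ccnb2 at 0.94, Mki67 at 0.85 and Cenpe at 0.77. In bulk RNA, fewer cells of a phase and less RNA per cell cannot be told apart, and the part of the cell cycle in the histone values was not tested.

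**Figure D4:**
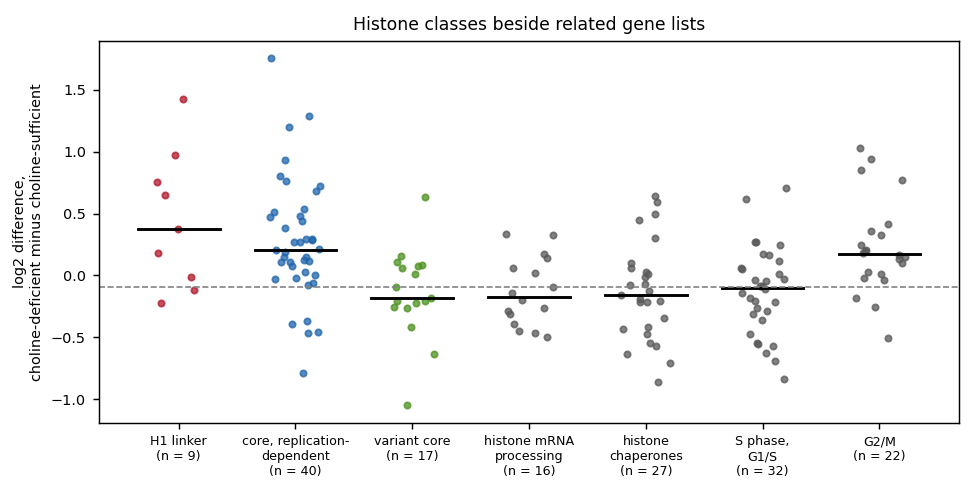
Log2 difference (y axis, choline-deficient minus choline-sufficient) of measured genes in the 3 histone classes and in 4 related lists (x axis, with the number of genes). Points are genes, black bars are medians and the dashed line is the median of all measured genes. The linker median (0.38) is the highest of the 7, and the S phase list lies on the dashed line.

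Of the labelled cell type's markers, Crx and Rcvrn, shared by rods and cones, and the cone opsin gene Opn1sw were above background on neither array. The cone genes Gnat2 and Gngt2 were measured on both, at differences of 0.56 and 0.72, while the cone arrestin gene Arr3 differed by -0.41 and Pde6c was above background on the choline-sufficient array only. In all 6 of 9 cone markers were measured, with a median of 0.64 that was 0.01 after normexp. Their summed level, in units of the array's 75th percentile, was 0.452 on the choline-deficient and 0.305 on the choline-sufficient array. Fibroblast markers summed to 65.4 and 7.61, with 4 of 5 measured and Lum above background on neither, and Müller glia markers to 2.58 and 1.20, with 3 of 5 measured and Kcnj10 on neither. Col1a1, Col1a2, Pdgfra, Sox9 and Slc1a3 were each more than 2-fold higher on the choline-deficient array. The fibroblast sum was mostly Col1a2, with signals of 100347 and 9360. Rod markers summed to 0.034 and 0.024, retinal ganglion cell markers to 0.038 and 0.047, and Crx with Rcvrn to 0.0014 and 0.0016. The cone, fibroblast, Müller glia and rod sums were higher on the array where linker and H2B genes were higher, and the others lower. The part of these markers in the histone differences was not tested. On both arrays 43020 non-control spots were read, with 30435 and 29467 well above background and 0 saturated.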

How the data were processed

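Each of the 2 samples, grouped by the treatment in the labels, was read as Cy3-labelled RNA on 1 array of the same slide, after low-input amplification of total RNA, per the protocols in the labels. Agilent Feature Extraction 12.1.1.1 made the deposited scanner files, per the submitters' processing notes. Per the file headers, processed intensity values are background-subtracted and carry an error. The deposited value table holds a ratio, each signal over a constant per array (1609 and 1280), equal to the array's 75th percentile, and its differences are those given here. It is linear, uncentred and runs the same way as the scanner values, with medians of 0.0409 and 0.0376. The sources used here do not describe that step.

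Each array's processed signals were divided by their 75th percentile, taken without control spots, and set to log2, using R 4.3.3 and the package data.table (version 1.17.8). Spots the software marked as outliers (92 and 86) were left out. A probe was measured when well above background and unsaturated on both arrays (26447 of 39426 probes), and a gene was the mean of its measured probes. Errors combine the software's processed errors on the arrays. For comparison, spots of the same probe had differences with a median SD of 0.05 (268 probes with at least 8 usable spots). Precision is limited by having 1 array per group. Counts, lists, sequence comparisons and motif searches used Python 3.11.15, numpy 2.4.6 and pandas 2.3.3. The step from probe levels to gene differences was first tested with differences planted in the data. The counts by class and list, the sequence comparisons and the motif searches were not tested in this way.

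Symbols are those of the files. All 76 members were found in the RefSeq table of GRCm38.p6, 75 of them on the chromosome of their probe. Probe positions are on mm9, and no exon or UTR annotation of that build was used here. The linker class is H1f, the replication-dependent core class is H2ac, H2bc, H3c and H4c, and the variant class is every other member. Named in full were members at least 1.5-fold apart by over 2 errors, the extremes of each class, members whose probes had opposite signs, members above background on 1 array, and up to 4 members of each other list by size. Other genes named by value, Slbp and the markers among them, were chosen after their values were seen. The members and lists were chosen with earlier results of these data known. Alternatives were median, quantile, cyclic loess and spike-in scaling, normexp in limma 3.58.1, the value table, no filter, brighter probes only, the brightest probe per gene, other sizes, and another class for 3 genes, added after seeing the data.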

Additional observations from a re-analysis of the deposited data

How the results depend on the processing

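The 13 members at least 1.5-fold higher became 20 after scaling to 5 bright spike-in probes, 8 after normexp, 7 among the brighter probes only and 4 at 2-fold. The 3 lower ones became 1 after spike-in scaling, 5 without a filter and 1 at 2-fold. Of all genes, 24.2% were at least 1.5-fold higher after spike-in scaling, 8.43% after normexp and 12.2% among the brighter probes. At least 1.5-fold lower were 5.96% of all genes after spike-in scaling and 15.7% without a filter. Spike-in scaling moved all genes by 0.27 and gave medians of 0.39 for all members, 0.65 for linker, 0.48 for replication-dependent core and 0.086 for variant genes. The linker median was 0.70 among the brighter probes, and the variant median 0.019 after cyclic loess. H2ac6 (-0.084) and H2bu2 (-0.19) changed sign after normexp; the cause was not tested. Of the 16 members at least 1.5-fold apart, 14 kept their sign under each of the 9 other ways of processing in which they were measured, and 8 were beyond 1.5-fold under each of these. These 9 ways are not independent checks. Those that choose probes cannot change a gene with 1 bright probe, and the value table holds the same signals. Among all genes at least 1.5-fold apart, 51.1% were higher, against 37.1% with median scaling (a shift of -0.12) and 80.2% with spike-in scaling. Signals near background limit H2bc22, H2bc23, H2ac6, H2ac21, H2bu2 and the germ-cell genes. No paired analysis was possible because each group holds 1 array, and no array could be left out.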

Other observations

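Chromatin genes with other symbols, not taken by the rule, had a median difference of -0.19 over 11 measured genes, which was 0.03 after cyclic loess and 0.08 after spike-in scaling. Hils1, a linker-like histone of spermatids, was 1.51 ± 0.23 higher on the log2 scale at dim signals of 46.2 and 12.9. Hmga2, an AT-hook protein that binds linker DNA, had log2 levels of -0.95 and -2.33, a difference of 1.37 ± 0.20, with its probes at 1.27 and 1.47. Macroh2a1, which encodes a large H2A variant, differed by -0.65 ± 0.20 and the nucleosome-binding gene Hmgn1 by -0.49 ± 0.20. Cenpa, the centromeric H3, differed by 0.32 ± 0.20.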
